A study of Mus musculus with 24 samples.

Results

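The postsynaptic scaffold genes described here are Dlg2, Dlg3, Dlg4, Dlgap1, Homer1, Shank1, Shank2 and Shank3, 8 of the 49568 gene symbols counted in hippocampal RNA. They were taken by symbol from the raw counts of each library, and all 8 passed the filter on low counts. The study asked how an enriched environment (EE) altered hippocampal transcription, and whether the kinase MSK1 was needed for it. WT and MSK1 KD mice, all male, on a C57-Bl/6 background (C57-Bl/6J after backcrossing of a C57-Bl/6n mutant) and 12 weeks old by the labels, were raised in standard housing (SH) or in EE. MSK1 KD mice are homozygous for a kinase-dead point mutation in the endogenous MSK1 gene (Rps6ka5), which inactivates the N-terminal kinase domain in every cell. They were bred as a line of their own and were not littermates of the WT mice. EE meant larger cages with a running wheel and toys, in larger social groups and from birth, whereas SH meant ordinary cages without them. RNA came from whole hippocampus, and 22 of 24 libraries were used: 6 WT SH, 5 WT EE, 6 KD SH and 5 KD EE. The number of mice behind each library is not given in the sources used here, so p values describe the spread between libraries.

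The postsynaptic density is the protein mesh beneath the glutamate receptors of an excitatory synapse. Membrane-associated guanylate kinases of the Dlg family bind receptors at the membrane, Dlgap proteins link these kinases to Shank proteins, and Homer proteins join Shank to metabotropic glutamate receptors and to calcium stores. Homer1 also makes a short form, Homer1a, which neuronal activity induces and which uncouples the longer Homer proteins. The counts are of whole genes, so the short and long forms of Homer1, and the isoforms of the other genes, could not be told apart. In whole tissue, fewer cells of a type and less RNA per cell cannot be told apart either.

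MSK1 phosphorylates CREB, a transcription factor that binds the cAMP response element. Windows of the RefSeq promoter table (GRCm38.p6), from 250 bases before to 50 after a start, were therefore searched on both strands for TGACGTCA (the full element), TGACG (its core, which the full element contains), GCGTGGGCG (the EGR1 site) and the serum response element. The table held 13 windows of 6 members, and none of Shank1 or Shank2. Neither the full element nor the serum response element was found in these 13, and they occurred in 1.79% and 1.63% of 32851 promoter windows of the same length. Homer1 had the core 3 times in 1 of its windows, at bases 195 to 199, 211 to 215 and 237 to 241 counted from the 5′ end. At least 3 cores were present in 1.03% of the windows, and at least 1 in 20.8%. The EGR1 site was found once, on the reverse strand of the Shank3 window at bases 105 to 113, against 0.612% of windows that hold it. Dlg4 and Dlg3 each had 1 window with a single core. The 250 bases before the start are shown for Homer1 and Shank3, the members with the rarest matches, with the matches in capitals. Both windows lie on the plus strand, that of Homer1 at chr13:93303507-93303756 and that of Shank3 at chr15:89499358-89499607.
Homer1: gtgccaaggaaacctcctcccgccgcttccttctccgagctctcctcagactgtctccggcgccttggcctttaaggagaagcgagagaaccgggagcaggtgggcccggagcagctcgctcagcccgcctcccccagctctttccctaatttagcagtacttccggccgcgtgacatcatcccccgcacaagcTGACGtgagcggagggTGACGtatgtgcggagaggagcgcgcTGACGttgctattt
Shank3: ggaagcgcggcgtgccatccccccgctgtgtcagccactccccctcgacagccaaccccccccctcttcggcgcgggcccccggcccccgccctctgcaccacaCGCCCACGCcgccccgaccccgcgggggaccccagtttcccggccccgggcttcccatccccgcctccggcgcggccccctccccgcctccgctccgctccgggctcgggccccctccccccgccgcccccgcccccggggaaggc
These are matches of letters and not evidence of binding.

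Counts on genes were between 8911999 and 56752074 per library, so that even the least abundant member, Homer1, had at least 985 counts. Values are given as CPM, counts relative to library size scaled by TMM, and differences as log2 fold changes from edgeR. Under SH, Rps6ka5 itself had a mean of 24.9 ± 2.25 CPM for WT and 25.5 ± 2.14 for KD (SD, n = 6 each). Under EE the means were 21.4 ± 1.94 and 23.5 ± 3.32 (SD, n = 5 each). The mutation changes the protein and leaves a transcript to be counted, so this does not check the genotype labels. All 6 markers of hippocampal regions were detected in each library, with a summed level between 582 and 887 CPM. The summed level of 10 choroid plexus markers, led by Enpp2, varied from 194 to 3314 CPM and was uneven among groups, with medians of 240.2 in WT SH, 2244 in WT EE, 268 in KD SH and 1430.4 in KD EE. Markers of the thalamus summed to 344 CPM in library 12 (WT SH), against 92.0 to 138 in the others, and markers of the striatum to 165 CPM in library 14 (WT SH), against 61.9 to 111 in the others. No library was identical to another of its group among 50 pairs.

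Per union length of exons, Shank1 and Dlg4 were the most abundant scaffold transcripts and Homer1 the least. Levels divided by the exon length of each gene (RPKM) were 63.8 ± 8.80 for Shank1, 59.6 ± 4.26 for Dlg4, 42.0 ± 2.495 for Dlg3, 35.02 ± 3.999 for Shank3, 34.7 ± 2.33 for Dlgap1, 23.8 ± 2.58 for Shank2, 23.5 ± 1.77 for Dlg2 and 9.31 ± 2.64 for Homer1 (SD, n = 22). By this length, the order had 3 clear steps. Dlg4 exceeded Dlg3, Dlgap1 exceeded Shank2 and Dlg2 exceeded Homer1 in 22 of 22 libraries, with mean log2 ratios of RPKM of 0.50 ± 0.11, 0.55 ± 0.12 and 1.38 ± 0.28 (SD). Dlg3 was above Shank3 in 21 of 22, with a mean log2 ratio of 0.27 ± 0.14 (SD) and ranges that overlapped. The other neighbours did not separate beyond their spread, as Shank1 was above Dlg4 in 16 of 22 libraries, Shank3 above Dlgap1 in 11 and Shank2 above Dlg2 in 12. The union of annotated exons was 13.3 kb for Dlg4, 17.9 kb for Dlgap1 and 16.3 kb for Dlg2. Their longest transcripts have 6.33, 7.17 and 7.81 kb. For Shank1 the union was 10.5 kb and the longest transcript 9.83 kb. The order therefore depends on the length used. Counts of libraries do not show this, because the length of a gene is fixed.

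None of the scaffold genes was called in any comparison over the 22 libraries. Calls needed both an adjusted p no higher than 0.05 and a log2 fold change, up or down, of 0.38 or more (1.3-fold). The background was as low, since 0 of 18482 genes (0%) were called in each of the 5 comparisons, and the lowest adjusted p of any gene was 0.15 (edgeR's quasi-likelihood test, Benjamini-Hochberg). At an unadjusted p under 0.05, 8.65% of genes differed between WT EE and WT SH, 9.63% between KD EE and KD SH, 5.76% between WT SH and KD SH, 2.61% between WT EE and KD EE, and 2.04% for the interaction of genotype and housing. The members that did so numbered 0, 1, 2, 0 and 0 of 8. DESeq2's Wald test over the same libraries called 23, 2, 2, 0 and 0 genes, with no member among them. For every member the libraries of the groups compared overlapped in each of the 4 pairwise comparisons. Groups failed to overlap for 1.16% of all genes between WT EE and WT SH, 0.557% between KD EE and KD SH, 0.276% between WT SH and KD SH and 0.346% between WT EE and KD EE. The largest absolute log2 fold change of a member in these comparisons was 0.30, and no 95% interval reached beyond 0.68, both for Homer1. With the choroid plexus marker level as a covariate, no member was called either. In that fit Homer1 was at 0.50 between KD EE and KD SH (adjusted p = 0.28) and 0.40 between WT EE and WT SH (adjusted p = 0.58), both beyond the fold threshold, and Shank1 was at 0.28 between KD EE and KD SH (adjusted p = 0.28).

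**Figure D1:**
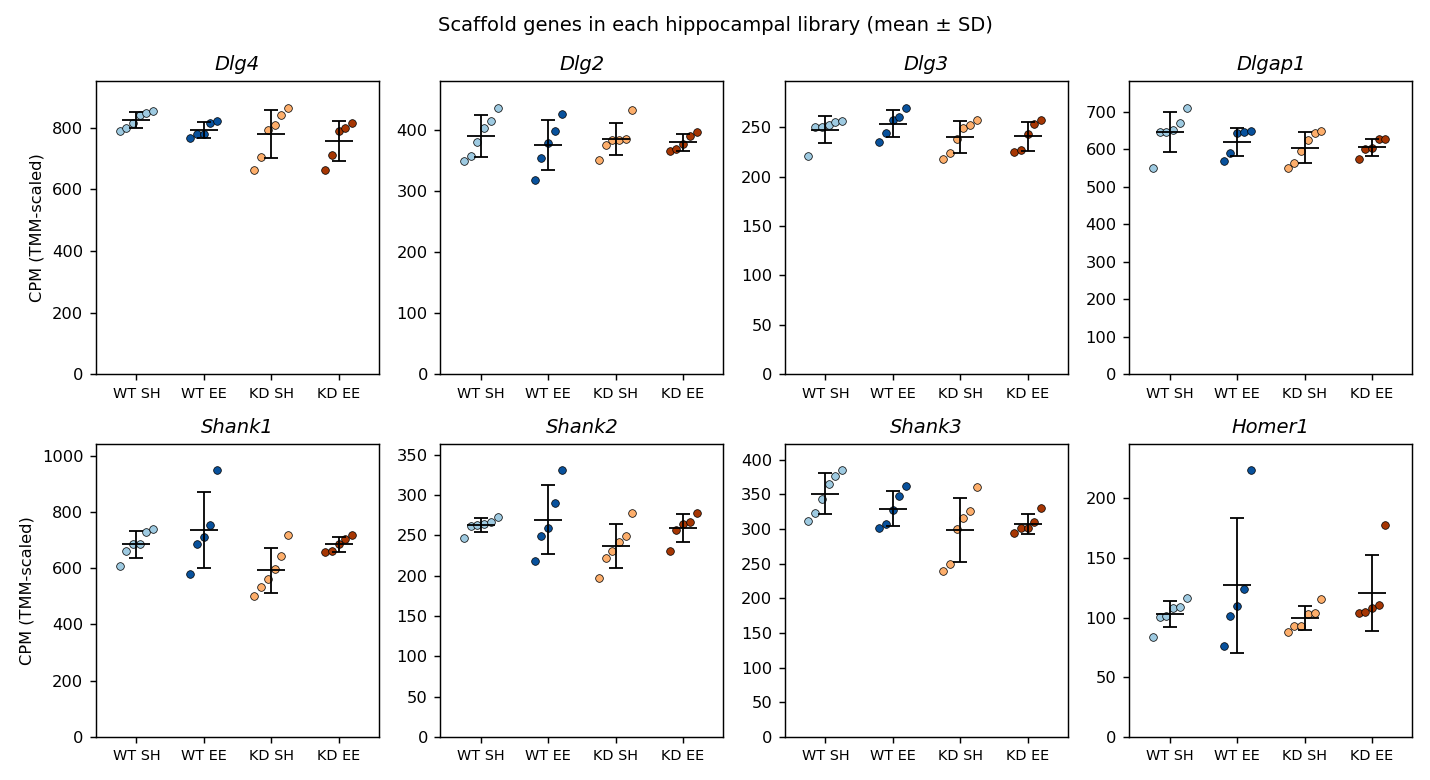
CPM (y axis, from 0) of the 8 scaffold genes in the 22 libraries, by group (x axis), where each point is a library and bars give the mean ± SD. The groups overlap for every gene, and the 2 libraries far above the others for Homer1 are 35A (WT EE, 223 CPM) and 36A (KD EE, 178 CPM).

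Among the membrane-associated guanylate kinases, Dlg4 encodes PSD95, the main scaffold of the mature excitatory synapse. The gene lies at chr11:70016942-70047522 (plus strand, GRCm38, GENCODE M21). Dlg4 ranged from 791 CPM in the lowest to 854 in the highest WT SH library, with a median of 828. In WT EE its 5 values were 779, 766, 814, 822 and 781 CPM. KD SH libraries were between 664 and 865 CPM with a median of 800.0, and the 5 KD EE libraries were at 814, 789, 664, 799.8 and 712 CPM. The KD groups were wider than the WT groups, with CVs of 10.05% and 8.58% against 3.23% and 3.08%, though the difference in spread was not tested. The lowest 2 libraries were 9 (KD EE), the shallowest of all, and 5 (KD SH). Log2 fold changes were −0.06 for WT EE against WT SH (95% interval −0.19 to 0.07, adjusted p = 0.87), −0.03 for KD EE against KD SH (−0.16 to 0.10, adjusted p = 0.90), 0.08 for WT SH against KD SH (−0.04 to 0.21, adjusted p = 0.86) and 0.06 for WT EE against KD EE (−0.08 to 0.20, adjusted p = 1).

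Dlg2 encodes PSD93, a relative of PSD95, from a gene at chr7:90476672-92449247 (plus strand). Other annotated genes share 1.38% of its exon bases. Its WT SH libraries lay between 349 and 437 CPM with a median of 392, and its KD SH libraries between 352 and 433 CPM with a median of 384. WT EE libraries were at 354, 319, 398, 379 and 426 CPM and KD EE libraries at 389.7, 365, 369.5, 397 and 378 CPM. The 5 KD EE values lay inside the range of every other group. Neither housing comparison passed, at −0.06 (−0.20 to 0.09) in WT and −0.01 (−0.15 to 0.13) in KD, and the genotype difference was 0.02 in SH and −0.03 in EE.

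Dlg3, at chrX:100767722-100818410 (plus strand), encodes SAP102, the member of the family known for its abundance in young synapses. It was the steadiest of the 8. Its SD of log2 CPM within groups was 0.09, smaller than that of all but 13.7% of the 10218 genes with a mean of at least 10 CPM, whose median was 0.13. WT SH libraries were between 221 and 257 CPM with a median of 252, where the value of 221 belonged to library 12 and the next was 250.2. KD SH libraries were between 218 and 257 CPM with a median of 244. WT EE libraries were at 235, 244, 261, 257 and 269.9 CPM and KD EE libraries at 225, 227, 243, 253 and 257 CPM. The largest log2 fold change of Dlg3 over the 22 libraries was 0.063, for WT EE against KD EE.

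Dlgap1, at chr17:69969073-70821413 (plus strand), encodes GKAP, the link between PSD95 and the Shank proteins. Its WT SH libraries were between 550.1 and 712 CPM with a median of 649.5, and its KD SH libraries between 552 and 648 CPM with a median of 610.35. In WT EE the values were 591, 570.1, 649, 648 and 643 CPM, and in KD EE 603, 601, 574, 628 and 627 CPM. Its largest difference was between WT SH and KD SH, at a log2 fold change of 0.10 (95% interval −0.02 to 0.22, adjusted p = 0.82).

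All 3 Shank genes had their lowest group mean in KD SH, as had Dlg3, Dlgap1 and Homer1. None of the Shank differences passed the test. Shank1 averaged 592 CPM in KD SH against 685 in WT SH, Shank2 236 against 263, and Shank3 299 against 351. Shank proteins form the deep layer of the density and bind Dlgap and Homer proteins. Shank1, at chr7:44310253-44360572 (plus strand), was between 607 and 741 CPM in WT SH with a median of 686, and between 499 and 719.7 CPM in KD SH with a median of 579. Its WT EE libraries were at 687, 578, 754, 711 and 948 CPM, and its KD EE libraries at 661, 718, 657, 703 and 685 CPM. Of the 6 KD SH libraries, 4 lay below every WT SH library and 5 below every KD EE library. Shank1 was 1.16-fold higher in WT SH than in KD SH (log2 0.21 ± 0.09 SE, 95% interval 0.03 to 0.40, unadjusted p = 0.025, adjusted p = 0.81 by edgeR) and 1.17-fold higher in KD EE than in KD SH (log2 0.22 ± 0.09 SE, 0.03 to 0.42, unadjusted p = 0.027, adjusted p = 0.49). Neither passed the test over all genes. In WT the enriched libraries straddled the standard ones, at a log2 fold change of 0.10 (−0.09 to 0.30, adjusted p = 0.83), which turned to −0.01 without library 35A.

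Shank3, at chr15:89499623-89560261 (plus strand), was between 312 and 385 CPM in WT SH with a median of 354, and between 239 and 361 CPM in KD SH with a median of 308. Its WT EE libraries were at 308, 302, 348, 328 and 362 CPM and its KD EE libraries at 301, 301, 294, 311 and 329.8 CPM. WT SH exceeded KD SH by a log2 fold change of 0.24 ± 0.08 SE (95% interval 0.07 to 0.40, unadjusted p = 0.0071, adjusted p = 0.81), the lowest unadjusted p of any member in any comparison. Enrichment did not bring a difference that passed in either genotype, at −0.09 (−0.26 to 0.08) in WT and 0.05 (−0.12 to 0.23) in KD. Between the enriched groups the difference was 0.09 (−0.09 to 0.27, adjusted p = 1). Shank2, at chr7:144001928-144424494 (plus strand), followed at a lower level. It was between 246 and 273 CPM in WT SH with a median of 264, and between 197 and 278 CPM in KD SH with a median of 236, with a log2 fold change of 0.16 (−0.01 to 0.32, adjusted p = 0.81). WT EE libraries were at 249.15, 218, 289.65, 259.7 and 331 CPM and KD EE libraries at 257, 266, 231, 264 and 278 CPM. KD EE exceeded KD SH by 0.15 (−0.03 to 0.32, adjusted p = 0.58). Exon bases shared with other genes made up 3.22% of Shank1 and 2.95% of Shank3, in both cases with an antisense transcript that unstranded counting could not separate, and 0% of Shank2.

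The lowest Shank1 and Shank3 values of KD SH were in libraries that also stood low in a measured feature. A GC score was computed for each library as the median log2 deviation of the fifth of genes richest in GC minus that of the fifth poorest in GC. Its lowest values were −0.48 in library 5 and −0.24 in library 1, both KD SH, and −0.28 in library 14 (WT SH). Libraries 1 and 5 also held the lowest 2 values of Shank1 and of Shank3. Shank1 was at 499 CPM and Shank3 at 249 CPM in library 1. In library 14, whose score was lower than that of library 1, they were at 607 and 312 CPM, the lowest of WT SH. Library 5 had, in addition, the lowest summed level of hippocampal region markers, 582 CPM. With group means removed, that sum varied with Dlg4 at r = 0.70, with Dlg3 at 0.54, with Shank3 at 0.45 and with Shank1 at 0.19. The longest transcripts of Shank3 and Shank1 have a GC content of 62.4% and 61.5%, higher than 98.5% and 97.8% of the expressed genes, whereas that of Homer1 (36.9%) is higher than only 1.04%. Across the 22 libraries, with group means removed, the score varied with Shank3 at r = 0.74, with Dlg4 at 0.59, with Shank1 at 0.36, with Dlg3 at 0.16, with Shank2 at 0.13, with Dlgap1 at −0.20, with Homer1 at −0.43 and with Dlg2 at −0.81. These r were not in the order of GC content. Dlg4 has 46.8% GC, below the median of 49.7%, and Dlg2, at 44.3%, is less poor in GC than Homer1. The r values are descriptions over libraries that share their preparation, and the score was made from the same libraries. With the score as a covariate, the difference between WT SH and KD SH was 0.18 for Shank3, 0.18 for Shank1 and 0.15 for Shank2, the last against 0.16 without it. The SE of Shank3 also fell with the score in the housing comparisons, from 0.084 to 0.062 in WT and from 0.084 to 0.063 in KD. A smaller estimate is therefore not by itself a weaker difference. Without library 5 the difference between WT SH and KD SH was 0.18 for Shank3, and without library 1 it was 0.17 for Shank1. The part of GC content in the Shank values was otherwise not tested, and that of the hippocampal region markers was not tested.

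**Figure D2:**
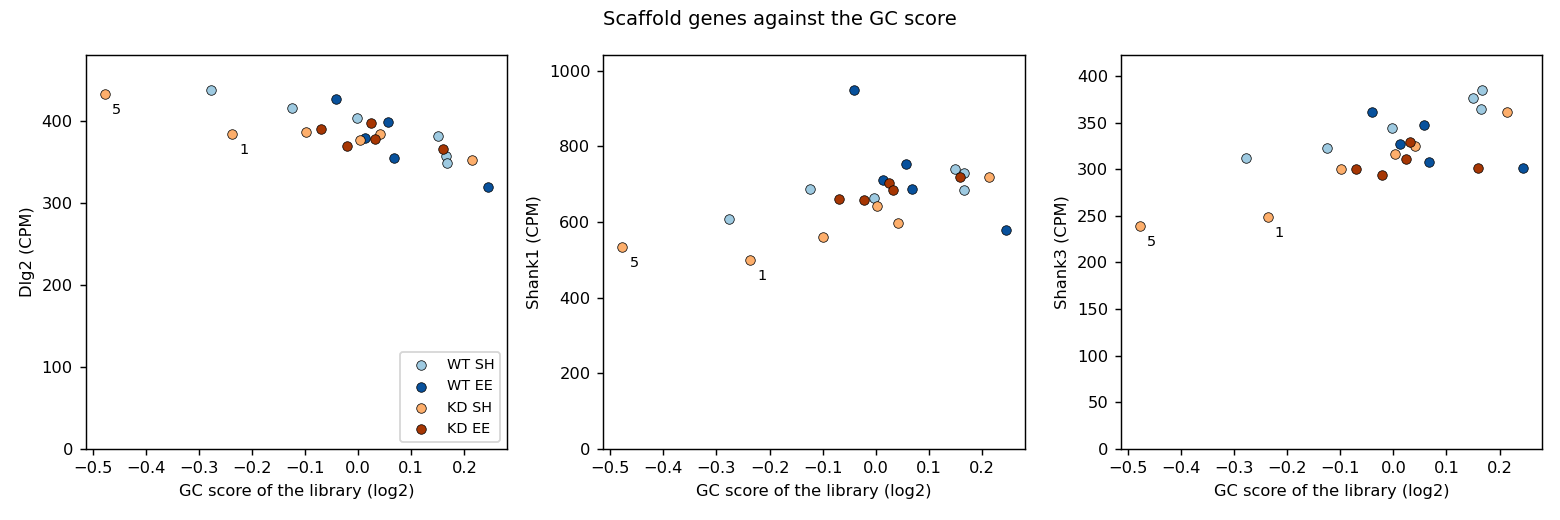
CPM (y axis, from 0) of Dlg2, Shank1 and Shank3 against the GC score of each library (x axis, log2), with points coloured by group. Libraries 1 and 5 (KD SH, scores −0.24 and −0.48) are marked, and have the lowest Shank1 and Shank3 values, while Dlg2 falls as the score rises.

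Homer1, at chr13:93299635-93405129 (plus strand), was the most variable member. WT SH libraries were between 83.8 and 116 CPM with a median of 105, and KD SH libraries between 87.8 and 116 CPM with a median of 98.2. WT EE libraries were at 101, 75.9, 124, 109.9 and 223 CPM, and KD EE libraries at 110.2, 104, 108, 105 and 178 CPM. Of the 10 enriched libraries, 1 in each genotype stood far above the rest, 35A in WT and 36A in KD, and the other 8 lay near the standard ones. Library 35A was also the deepest, with the largest share of reads outside genes or shared by several, 18.6%. The next was 31B at 15.8%, and 36A was at 15.1%. Within groups the SD of log2 CPM was 0.33, larger than in 98.4% of genes. The log2 fold changes with enrichment were 0.30 in WT (95% interval −0.07 to 0.68, adjusted p = 0.69) and 0.30 in KD (−0.08 to 0.67, adjusted p = 0.61). They rested on those 2 libraries, since without both they were 1.1e-05 in WT and 0.12 in KD.

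Of the activity-regulated genes set beside Homer1, Egr1 was also high in these libraries. Egr1, an immediate-early transcription factor, was at 259 CPM in 35A, its highest value, and at 234 CPM in 36A. It was as high in library 32A (KD EE), at 257 CPM, where Homer1 was at 105 CPM and not raised. Arc, an immediate-early regulator of AMPA receptor trafficking, was at 210.4 and 214 CPM there, inside the range of 103 to 295 CPM of all libraries. Fos was at 30.3 and 23.6 CPM, inside the range of 12.6 to 38.88 CPM of all libraries, and Npas4 was at 17.5 and 15.005 CPM, which were the lowest values of all 22 libraries. Across the 22 libraries, with group means removed, Homer1 varied with Egr1 at r = 0.78, with Arc at 0.50, with Fos at 0.48 and with Npas4 at −0.62. Without 35A and 36A these became 0.71, 0.53, 0.63 and 0.02. The highest r among 8 activity genes was that with Fosb, at 0.84 and 0.77 without the pair, a gene picked after its value was seen. None of the 8 activity genes was called over the 22 libraries. In KD EE against KD SH, 7 of 8 were positive with a median log2 fold change of 0.41, and 4 had an unadjusted p under 0.05, against 9.63% of all genes. In WT EE against WT SH, 3 of 8 were positive with a median of −0.036. Between WT SH and KD SH, 8 of 8 were positive with a median of 0.22, and between WT EE and KD EE 3 of 8 with a median of −0.05.

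**Figure D3:**
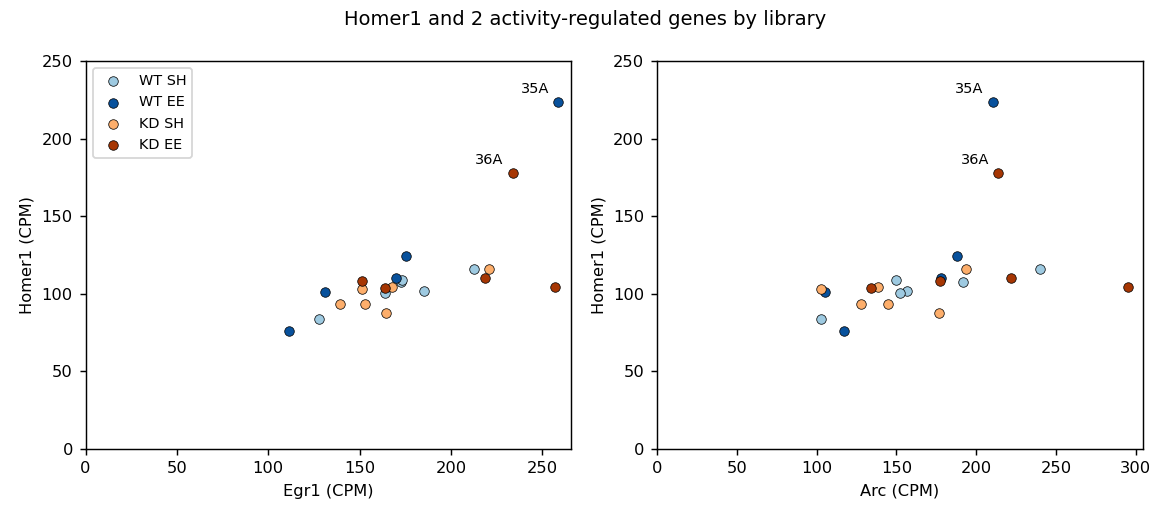
Homer1 (y axis, CPM) against Egr1 and Arc (x axes, CPM) in the 22 libraries, coloured by group, with all axes from 0. Libraries 35A and 36A are marked at 223 and 178 CPM of Homer1, and the other 20 lie between 75.9 and 124 CPM.

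Over the 22 libraries, the genotype comparison in SH was the only one in which all 8 members had the same sign, with WT above KD and a median log2 fold change of 0.09 against −0.0064 over all genes. Some marker lists were also higher in WT SH there, with 6 of 6 striatum markers positive (median 0.40, 3 at an unadjusted p under 0.05). So were 5 of 5 thalamus markers (0.31, 3) and 5 of 6 markers of hippocampal regions (0.10, 1). Of all genes, 5.76% had an unadjusted p under 0.05 in this comparison. Over the authors' 17 libraries, 6 of 6 striatum markers but 2 of 5 thalamus markers (median −0.11) were positive. The library highest in thalamus markers was left out there. Over the 22, positive were 0 of 10 choroid plexus markers, 0 of 5 of blood and 1 of 5 of microglia. Astrocyte, oligodendrocyte and endothelium markers had 2 of 5 positive each. Markers of neurons (5 of 7), inhibitory neurons (3 of 5) and meninges (4 of 5) were mostly higher. Without library 14, Dlg2 was at −0.012 and Dlgap1 at 0.07 in this comparison, and with each library left out in turn Shank1 stayed between 0.17 and 0.28 and Shank3 between 0.18 and 0.30. In EE, 7 of 8 were positive with a median of 0.06 against 0.0024 over all genes. In the housing comparisons 4 of 8 were positive in WT (median −0.01 against 0.0062) and 6 of 8 in KD (0.04 against 0.0028). The 2 housing comparisons use different libraries, but each shares its control with a genotype comparison, and in addition the members varied together, so the signs are not 8 separate observations. For the interaction, which tests whether enrichment acted differently in the genotypes, estimates lay between −0.14 (Shank3) and 0.01 (Dlg3), with unadjusted p values of at least 0.23.

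**Figure D4:**
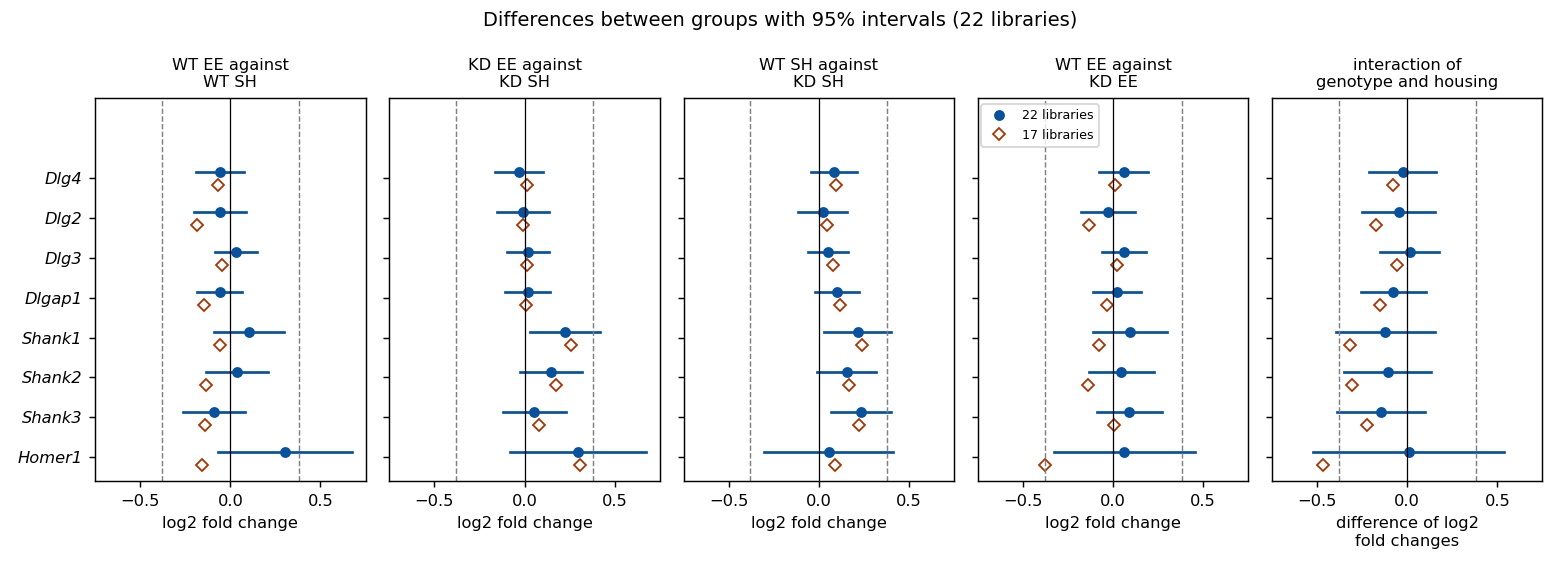
Log2 fold changes (x axis) of the 8 scaffold genes for the 4 pairwise comparisons and the interaction, with filled points and bars for the estimate and 95% interval over 22 libraries, and open diamonds for the estimate over 17. Dashed lines mark the threshold of 0.38, and the intervals of Homer1, up to 0.68, are the widest.

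The authors left out a further 5 libraries (2, 9, 12, 31B and 35A) for poor correlation within their groups. Such a choice can narrow the spread within groups and lower p values. Those left out of WT EE, 31B and 35A, held its highest values of Homer1, Shank1 and Shank2. Libraries 2 (KD SH) and 12 (WT SH) had the highest summed choroid plexus markers of their groups, at 1712 and 1104 CPM. Libraries 9 (KD EE), 31B and 35A had the lowest of theirs, at 291, 220 and 194 CPM. The 17 thus set enriched libraries with more choroid plexus transcript against standard ones with less. Over the authors' 17 no member was called either. There, 3.55% of 18701 genes were called between WT EE and WT SH, 1.74% between KD EE and KD SH, 0% between WT SH and KD SH, 0.00535% between WT EE and KD EE and 0% for the interaction. All 10 choroid plexus markers were among those called higher with enrichment, with median log2 fold changes of 4.19 in WT and 4.13 in KD. The part of choroid plexus tissue in the members' values over the 17 was not tested. The shares at an unadjusted p under 0.05 were 13.7%, 11.3%, 4.95%, 6.4% and 5.51%, and the members that reached it numbered 2, 3, 4, 1 and 3 of 8. All 8 members were negative there in WT EE against WT SH (median −0.14) and for the interaction (median −0.20), and all 8 positive in WT SH against KD SH (median 0.11). Those with such a p in WT were Dlg2 (log2 fold change −0.19, adjusted p = 0.26) and Dlgap1 (−0.14, adjusted p = 0.32), and those in KD were Shank1 (0.26, adjusted p = 0.21), Homer1 (0.31, adjusted p = 0.36) and Shank2 (0.17, adjusted p = 0.38). This set holds 36A but not 35A, and Homer1 turned from 0.30 to −0.16 in WT and was 0.31 in KD. The interaction was −0.47 for Homer1, −0.32 for Shank1 and −0.31 for Shank2, each with an adjusted p of 0.88 by edgeR. Homer1 was at −0.38 between WT EE and KD EE (adjusted p = 0.71). In the genotype comparison under SH, Shank1 (0.24), Shank3 (0.23), Shank2 (0.17) and Dlgap1 (0.12) were those with an unadjusted p under 0.05, and each had an adjusted p of 0.88.

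The scaffold genes varied together from library to library. With group means removed, the median Pearson r of their 28 pairs over the 22 libraries was 0.47, against 0.0035 over all pairs of genes with at least 10 CPM, and 25 of 28 were positive. Shank1 and Shank2 were the closest pair at 0.84, followed by Shank1 and Shank3 at 0.78, Dlg3 and Dlgap1 at 0.74, and Dlg2 and Homer1 at 0.70. The 3 negative pairs were Dlg2 with Shank3 at −0.29, Dlg2 with Dlg4 at −0.19 and Homer1 with Dlg4 at −0.17. Without 35A and 36A the median was 0.43, and Homer1 with Shank1 fell from 0.48 to 0.11. The pairs share libraries, depth and the GC feature above. The summed level of neuron markers, which include Map2, varied with Dlg2 at 0.73 and Dlgap1 at 0.62 but with Shank3 at −0.45, that of oligodendrocyte markers with Dlg3 at −0.72 and Dlgap1 at −0.61, and that of choroid plexus markers with Dlg2 at −0.51. Their part in the covariation was not tested.

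**Figure D5:**
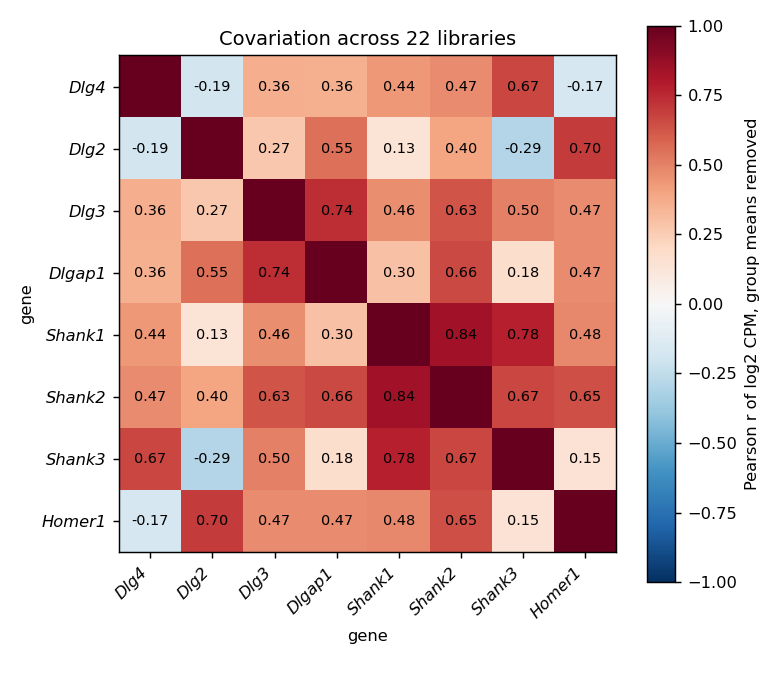
Pearson r (colour and printed values) between each pair of the 8 scaffold genes across 22 libraries, from log2 CPM with group means removed. The highest values are those of Shank1 with Shank2 (0.84) and with Shank3 (0.78), and Dlg2 has negative values with Shank3 and Dlg4.

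By the same measure over 22 libraries, the genes most like Dlg2 were Map2 (r = 0.97), which encodes a dendritic microtubule protein, Wnk3 and Ccser2 (both 0.94). Those most like Dlg4 were Jph4 (0.90), Gprin1 (0.89) and Nfix (0.88), and those most like Dlg3 were Sphkap (0.91), Sorl1 (0.89) and Foxk1 (0.88). Dlgap1 was closest to Stxbp5 (0.91), Dock4 and Prkcb (both 0.90). Shank1 was closest to Ttbk1, Kmt2d and Rapgef1 (all 0.90), Shank2 to Med13l (0.93), Epb41l1 and Rapgef1 (both 0.92), and Shank3 to Ttyh3 (0.93), Arhgap23 (0.92) and Ulk1 (0.91). Homer1 was closest to Kdm7a (0.95), Tmcc1 (0.94) and Btaf1 (0.93), which became 0.83, 0.81 and 0.73 without 35A and 36A.

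Of 25 further scaffold genes, all tested, 0 were called in any comparison over 22 or 17 libraries. Over the 17, Homer2, a relative of Homer1 chosen here after its value was seen, had an adjusted p of 0.021 by edgeR in WT EE against WT SH at −0.32, short of the fold threshold. Over the 22 it was at −0.04 (adjusted p = 0.96). Between WT SH and KD SH, 21 of 25 were positive with a median log2 fold change of 0.08, against −0.0064 over all genes. An unadjusted p under 0.05 was reached by 4 of the 25 and by 5.76% of all genes. The lowest p values of the 25 were those of Dlgap2 (0.24, adjusted p = 0.81) and Dlgap4 (0.14, adjusted p = 0.81), relatives of Dlgap1, and of Lrrc7 (0.36, adjusted p = 0.81), which encodes densin. Between WT EE and WT SH, 9 of 25 were positive with a median of −0.01, and Begain, which encodes a guanylate kinase associated protein, had the lowest p (−0.16, adjusted p = 0.43). Begain also had the lowest p for the interaction (−0.20, adjusted p = 1). Between KD EE and KD SH, 17 of 25 were positive with a median of 0.04, led by Dlgap4 (0.11, adjusted p = 0.58). Between WT EE and KD EE, 22 of 25 were positive with a median of 0.04, and Dlg1, another member of the Dlg family, had the lowest p (−0.13, adjusted p = 1).

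Partners of these scaffolds, mostly receptors and adhesion proteins but also the kinase genes Camk2a and Camk2b, had 0 of 17 called in any comparison. In WT EE against WT SH, 5 of 17 were positive with a median of −0.05, against 0.0062 over all genes. An unadjusted p under 0.05 was reached by 4 of the 17, all lower in EE, and by 8.65% of all genes. Among these 4 were the adhesion genes Lrrtm2 and Lrrtm1 (both −0.21, adjusted p = 0.46 and 0.47). Between WT SH and KD SH, 13 of 17 were positive with a median of 0.05. Those with low unadjusted p values included Cacng8 (0.25), an AMPA receptor auxiliary protein, and Grin1 (0.16), the obligatory NMDA receptor subunit, each with an adjusted p of 0.81. Between KD EE and KD SH, 6 of 17 were positive with a median of −0.03.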

How the data were processed

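Poly-A RNA of whole hippocampus was sequenced as paired-end, unstranded libraries. Adaptors were removed by the authors with Skewer. They used STAR 2.5 for alignment to GRCm38 and HTSeq, in its unstranded mode and for unique alignments, for counting. The deposited files hold these raw counts for 49568 gene symbols, without normalization. Reads outside genes or shared by several genes (14.05% to 18.6% of the total in the 22 libraries) were left out of library sizes. The authors' table of normalized values was not used here.

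Libraries 33B and 34B failed the authors' quality control and were left out. Counts of the other 22 were filtered with filterByExpr by group, scaled by TMM and fitted with edgeR 4.0.16 in R 4.3.3 as 4 group means (quasi-likelihood, two-sided, Benjamini-Hochberg over 18482 genes). Log2 CPM for covariation used a prior count of 2. RPKM are these CPM divided by the union exon length. A floor of 3 counts was 0.0529 to 0.337 CPM and covers counting error only, since reads carried no molecular identifiers. Exon lengths and positions are from GENCODE M21, in which 47240 symbols were found, and promoters from RefSeq. Alternatives were DESeq2 1.42.0, its size factors, other filters, other sets of libraries, covariates and each library left out. The GC score covariate and the fit without 35A and 36A were chosen after seeing the data. The fit was tested on simulated data.

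The members and gene lists were chosen with earlier results of these data known. The genes named beside the members were, in the scaffold and the receptor and adhesion lists, those called and the 3 with the lowest unadjusted p in a comparison, and for each member the 3 most alike in Pearson r, with Rps6ka5, Arc, Egr1, Fos and Npas4. Some genes that this rule names are not reported here. Figures were drawn with matplotlib 3.10.9.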

Additional observations from a re-analysis of the deposited data

Results flagged for a closer look

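In 2 of the 32 combinations of a member and a group, 1 library lay apart from its group by Dixon's test, which chance would do in about 1 of 20. Dlg3 was at 221 CPM in library 12 (WT SH), where the next lowest library was at 250.2 CPM and the gap was 0.82 of the group's range. Library 12 also had the highest summed level of thalamus markers, 344 CPM, and their part in the Dlg3 value was not tested. Homer1 was at 178 CPM in library 36A (KD EE), where the next was at 110.2 CPM and the gap was 0.91 of the range. Its choroid plexus markers summed to 3157 CPM, whereas those of 35A, the other library with a high Homer1 level, summed to 194 CPM, the lowest of all. Their part in the Homer1 values was not tested.

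The 2 libraries that failed quality control also held scaffold transcripts. In 33B (WT EE, 18667300 counts on genes), CPM were 388 for Dlg2, 246 for Dlg3, 751 for Dlg4, 639.7 for Dlgap1, 116 for Homer1, 848 for Shank1, 275 for Shank2 and 322 for Shank3. All 8 were inside the range of the 22 libraries. In 34B (KD EE), with 16442 counts in all, each gene rested on 2 to 17 counts. Those above 3 counts were Dlg2 at 710.2 CPM, Shank1 at 501 CPM, Dlgap1 at 376 CPM, Dlg4 at 292 CPM, and Dlg3 and Shank2 at 209 CPM each.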

How the results depend on the processing

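No paired analysis was possible because the labels share no replicate number between groups. The count of members called was 0 in every alternative run, and the lowest adjusted p of any member was 0.21. The count of all genes called was 0 over the 22 libraries in each comparison. For WT EE against WT SH it was 664 over the 17 libraries, 1 over all 24, 314 without the lettered libraries (31B, 32A, 33A, 35A and 36A, all enriched), 23 with DESeq2 and 7 with no filter. For KD EE against KD SH it was 325 over the 17 and 2 with DESeq2, for WT SH against KD SH 2 with DESeq2, and for WT EE against KD EE 1 over the 17. It ranged from 0 to 1 for KD EE against KD SH and for WT EE against KD EE when each library was left out, with 1 in each without library 9. The cause was not tested.

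Of 1312 alternative estimates of the members' log2 fold changes, 76 had the opposite sign to that over 22 libraries, and none of either was called. The covariate of GC score and the fit without 35A and 36A were chosen after seeing the data. Over the 17 libraries, WT EE against WT SH turned to −0.044 (Dlg3), −0.16 (Homer1), −0.059 (Shank1) and −0.14 (Shank2), KD EE against KD SH to 0.012 (Dlg4), WT EE against KD EE to −0.033 (Dlgap1), −0.38 (Homer1), −0.076 (Shank1) and −0.14 (Shank2), and the interaction to −0.056 (Dlg3) and −0.47 (Homer1). Without the lettered libraries, WT EE against WT SH turned to −0.043 (Dlg3), −0.21 (Homer1), −0.11 (Shank1) and −0.17 (Shank2), KD EE against KD SH to −0.031 (Dlg3) and −0.0098 (Dlgap1), WT EE against KD EE to −0.040 (Dlgap1), −0.28 (Homer1), −0.11 (Shank1) and −0.12 (Shank2), and the interaction to −0.012 (Dlg3) and −0.34 (Homer1). Without 35A and 36A, WT EE against WT SH turned to −0.0033 (Shank1) and −0.045 (Shank2), WT EE against KD EE to −0.060 (Homer1), −0.015 (Shank1) and −0.013 (Shank2), and the interaction to −0.12 (Homer1). Over all 24, KD EE against KD SH turned to 0.018 (Dlg2), and the interaction to 0.0036 (Dlg4) and −0.0038 (Homer1). With the choroid plexus marker level as a covariate, KD EE against KD SH turned to 0.074 (Dlg2), WT EE against KD EE to −0.039 (Homer1) and the interaction to −0.0997 (Homer1). With the GC score, KD EE against KD SH turned to 0.058 (Dlg2) and −0.0073 (Shank3), and the interaction to −0.066 (Homer1).

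With each library left out in turn, ranges that crossed 0 were, for WT EE against WT SH, −0.0096 to 0.44 (Homer1), −0.012 to 0.18 (Shank1) and −0.054 to 0.10 (Shank2), each lowest without 35A. For KD EE against KD SH they were −0.036 to 0.028 (Dlg2), −0.0040 to 0.044 (Dlg3), −0.072 to 0.0093 (Dlg4), −0.0063 to 0.039 (Dlgap1) and −0.00068 to 0.11 (Shank3). For WT EE against KD EE they were −0.080 to 0.028 (Dlg2), −0.25 to 0.245 (Homer1), −0.017 to 0.17 (Shank1) and −0.041 to 0.12 (Shank2), and for WT SH against KD SH −0.012 to 0.058 (Dlg2). For the interaction they were −0.10 to 0.0058 (Dlg2), −0.019 to 0.043 (Dlg3), −0.069 to 0.015 (Dlg4) and −0.30 to 0.19 (Homer1). Homer1 in KD EE against KD SH fell to 0.12 without 36A. Mean CPM moved by less than 1 SD under each scaling and over the 17 libraries.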
